A study of Mus musculus with 12 samples.

Results

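Day 4 embryoid bodies were compared with the undifferentiated embryonic stem (ES) cells they were made from, in 6 of the 12 arrays of the series, chosen by their titles alone. The 3 ES arrays hold total RNA of undifferentiated cells at day 0, and the 3 embryoid body (EB) arrays hold total RNA of bodies at day 4, with no DMSO or all-trans retinoic acid named in their labels. Both groups come from a single clone of the mouse ES cell line D3, a widely used line derived from a mouse blastocyst, and the labels call the 3 samples of each group biological replicates. ES cells were kept in medium with fetal bovine serum, and bodies were formed by letting the cells aggregate in bacteriological dishes with LIF left out. Time in culture, aggregation and the loss of LIF therefore come together in the comparison and cannot be told apart. The 6 remaining arrays, bodies given DMSO or all-trans retinoic acid (5 micromolar) for 12 h, entered the fit only to estimate the spread between replicates. They also counted in the choice of the probe set kept for each gene.

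ES cells are held in an undifferentiated state by transcription factors such as Oct4 (Pou5f1), Sox2 and Nanog, and LIF acts on them through the transcription factor STAT3. When they aggregate without LIF, the outer cells of the body turn into extraembryonic endoderm, an absorptive, secretory epithelium that resembles the visceral endoderm around the early embryo. The inner cells pass from the naive state of the blastocyst to the primed state of the epiblast, the tissue that later forms the germ layers. The data below are read against these roles, as background to the genes named.

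Of 19938 genes tested, 6925 passed an adjusted p of 0.05 in limma, 34.7% of all, with 3558 higher in bodies (17.8%) and 3367 lower (16.9%). The 3 and 3 values of a gene did not overlap for 8244 genes, or 41.3%. A change of at least 1.5-fold was reached by 593 called genes in the upward direction (2.97% of all genes) and by 840 in the downward direction (4.21%), together 7.19%. At 4-fold or more the counts were 20 and 68, so the large changes were more often falls. The median difference over all genes was -0.0004 on the log2 scale. Below, a level is a log2 value of 1 array, a change is the log2 difference EB minus ES ± SE of the fit (n = 3 arrays per group), and "rose" or "fell" is used only of genes that passed. Levels of different genes are not compared, because each probe set has its own brightness.

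**Figure D1:**
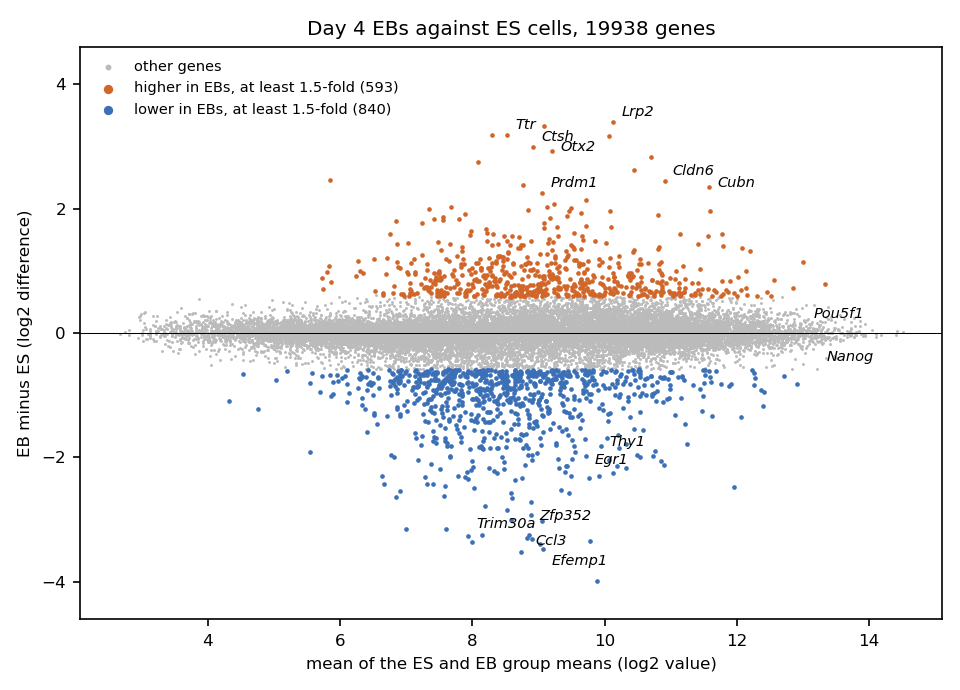
Each point is 1 of 19938 genes, plotted by the mean of the ES and EB group means (log2 value, horizontal) and by the difference EB minus ES (log2, vertical). Orange points are the 593 genes that rose at least 1.5-fold and blue points the 840 that fell at least 1.5-fold. Lrp2, Ttr and Ctsh lie near the top and Efemp1, Ccl3 and Trim30a near the bottom, while Pou5f1 and Nanog lie close to 0.

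Array medians of the 6 arrays lay between 7.76 and 7.87, replicates correlated at r = 0.996 to 0.9981 and ES with EB arrays at 0.9828 to 0.9855. The ES label was set against markers of ES cells, whose mean level over 7 genes was 12.63 to 12.67 in ES arrays and 12.58 to 12.65 in EB arrays, overlapping ranges. The marker list of visceral endoderm rose in 9 of 10 genes, its mean level going from between 8.03 and 8.07 to between 9.45 and 9.67. Of the parietal endoderm markers 5 of 7 rose and 1 fell, with mean levels of 10.02 to 10.07 in ES arrays and 10.38 to 10.47 in EB arrays. Fibroblast markers fell in 11 of 13 genes with 0 higher, from between 9.38 and 9.41 in ES arrays to between 8.16 and 8.28 in EB arrays. The labels used here do not say whether the ES cells were grown on a layer of feeder fibroblasts. Other marker lists were short and are given as genes higher and lower. They were 0 and 1 of 5 for trophoblast, 1 and 0 of 6 for macrophages and 0 and 0 of 4 for blood. Endothelium had 1 and 1 of 5, neural cells 1 and 1 of 4 and cardiac muscle 0 and 2 of 4. Of all genes 17.8% were higher and 16.9% lower.

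The genes of the endocytic receptor complex of absorptive epithelia rose together, and Lrp2 had the largest rise of all genes that could be named. Lrp2 encodes megalin, the large receptor that takes up vitamin carriers and lipoproteins, and its levels were 8.44, 8.37 and 8.51 in the ES arrays and 11.75, 11.91 and 11.81 in the EB arrays. All EB arrays stood more than 3 log2 units above all ES arrays, a rise of 3.39 ± 0.08 (10.5-fold; adjusted p = 4.80e-11). Cubn, the gene of cubilin, which binds ligands at the surface beside megalin, was at 10.44, 10.40 and 10.38 in the ES arrays and 12.66, 12.83 and 12.78 in the EB arrays, and rose by 2.35 ± 0.07 (5.1-fold). The levels of Amn, the gene of amnionless, which carries cubilin to the membrane, were 8.89, 9.12 and 8.82 in the ES arrays and 10.02, 10.26 and 10.10 in the EB arrays. They did not overlap either, with a rise of 1.18 ± 0.10. The adaptor gene Dab2, which links such receptors to clathrin, rose by 1.36 ± 0.06 in the probe set used, while a further Dab2 probe set differed by 0.09 and did not pass. In bulk RNA, more cells of a type and more RNA per cell cannot be told apart.

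Across the list of endocytic and absorptive epithelium genes, 24 of 39 measured genes rose and 4 fell, with a median difference of 0.40 (21 of 36 and 0.27 without the 3 named in earlier work on these data). Slc40a1, the iron exporter ferroportin, rose by 1.99 ± 0.13, the phosphate transporter gene Slc34a2 by 1.59 ± 0.10, and the amino acid transporter gene Slc7a9 by 0.78 ± 0.11. The motor protein gene Myo6, whose product moves endocytic vesicles, rose by 1.32 ± 0.08, the lipoprotein receptor gene Vldlr by 1.05 ± 0.06, and the membrane protease genes Prss8 and Enpep by 1.27 ± 0.06 and 0.95 ± 0.12. Not all genes of an absorptive surface moved that way. Anpep, the gene of aminopeptidase N, fell by 0.69 ± 0.04, Tm4sf1 fell by 1.33 ± 0.07 and Ezr, the gene of the microvillus linker ezrin, fell by 0.33 ± 0.04. Clathrin genes Clta (-0.086) and Cltc (0.12) did not pass.

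Secreted products of visceral endoderm rose next to these receptors: 24 of 36 measured genes were higher and 1 was lower, with a median of 0.52. Ttr, the gene of the thyroxine and retinol carrier transthyretin, had levels of 7.06, 6.88 and 6.87 in the ES arrays and 9.85, 10.35 and 10.17 in the EB arrays. The EB values were the more scattered, with the lowest in replicate 1, and the rise was 3.19 ± 0.12 (9.1-fold). The apolipoprotein genes Apoa1 (1.56 ± 0.10) and Apob (1.34 ± 0.11) and Mttp, which loads lipid onto apolipoprotein B (1.02 ± 0.09), rose as well. Afp, the alpha-fetoprotein gene, was at 6.56, 6.79 and 6.62 in the ES arrays and 6.97, 7.11 and 6.74 in the EB arrays. Its groups overlapped, its change was 0.28 ± 0.10, and its call was lost when ES replicate 1, ES replicate 3, EB replicate 1 or EB replicate 2 was left out (0.20 to 0.27). Albumin (Alb, 0.15), retinol-binding protein (Rbp4, 0.037) and the fibrinogen genes Fga (-0.053) and Fgg (-0.022) did not pass, and the transferrin gene Trf fell by 0.31 ± 0.04. Lgals2 (3.33 ± 0.09), Gkn2 (3.19 ± 0.11) and the pepsinogen gene Pga5 (3.17 ± 0.06) were put on this list with their rise already known. Without these and the 2 others named in earlier work, 19 of 31 genes rose and 1 fell, with a median of 0.40.

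**Figure D2:**
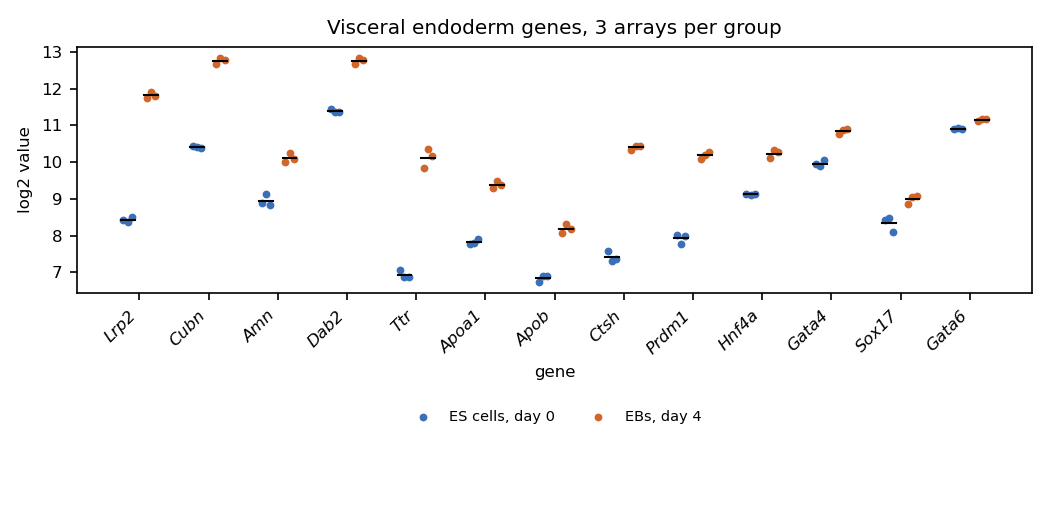
Log2 values (vertical) of 13 genes of visceral endoderm and its receptors in the 3 ES arrays (blue) and 3 EB arrays (orange), with black bars for the group means (n = 3). For each of these genes the EB arrays lie above the ES arrays with no overlap, by 3.39 log2 units for Lrp2 and by 0.24 for Gata6.

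Transcription factors of endoderm rose in 12 of 19 cases and fell in 2, with a median of 0.52. Without the 5 that earlier work had named, 7 of 14 rose, and the median was 0.13. Prdm1, the gene of the repressor Blimp1, was at 8.01, 7.78 and 7.99 in the ES arrays and 10.08, 10.18 and 10.28 in the EB arrays. It was the most changed factor of the list, with a rise of 2.26 ± 0.07. Hnf4a, a nuclear receptor that switches on apolipoprotein and transthyretin genes, was at 9.13, 9.11 and 9.14 in the ES arrays and 10.11, 10.33 and 10.26 in the EB arrays, and rose by 1.11 ± 0.07. Foxq1 (1.13 ± 0.08), Hhex (0.92 ± 0.09), Gata4 (0.90 ± 0.07), Sox17 (0.65 ± 0.09), Foxa2 (0.59 ± 0.08) and Sox7 (0.52 ± 0.07) also rose. Gata6, an early factor of the primitive endoderm, changed little: it stood at 10.90, 10.94 and 10.91 in the ES arrays and 11.11, 11.17 and 11.17 in the EB arrays, which gave 0.24 ± 0.05. Foxa1 fell by 0.58 ± 0.09 and Nr2f2, the gene of the orphan receptor COUP-TFII, fell by 1.06 ± 0.07. Gsc (0.015), Sox18 (-0.05) and Cdx2 (0.016) did not pass.

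Digestive enzymes of the lysosome split. Ctsh, the gene of the aminopeptidase cathepsin H, was at 7.57, 7.32 and 7.36 in the ES arrays and 10.33, 10.45 and 10.44 in the EB arrays, all EB arrays being higher, and rose by 2.99 ± 0.08 (7.94-fold). The legumain gene Lgmn (0.84 ± 0.06), the peptidase gene Tpp1 (0.66 ± 0.05), Npc1 of cholesterol export (0.64 ± 0.04) and cathepsin genes Ctsf (0.61 ± 0.06) and Ctsc (0.54 ± 0.08) rose with it. Ctso fell by 1.24 ± 0.10, the acid lipase gene Lipa fell by 0.66 ± 0.07 and Ctsb fell by 0.26 ± 0.05, so that of 29 genes 14 rose and 7 fell with a median of 0.037 (4 fell when only the ES and EB arrays were fitted). Of the basement membrane list, the chains that visceral and parietal endoderm share rose: Col4a1 (0.78 ± 0.07), Col4a2 (0.80 ± 0.06), Lama1 (0.55 ± 0.05) and Lamb1 (0.40 ± 0.05), with the collagen chaperone gene Serpinh1 (0.63 ± 0.05) and Sparc (0.45 ± 0.04). The parietal endoderm gene Pth1r, a receptor for parathyroid hormone-related protein, rose by 1.13 ± 0.08, while Plat, another gene of parietal endoderm, fell by 0.74 ± 0.05 and Thbd (0.18) did not pass. In all, 15 of 28 genes of the basement membrane list rose and 6 fell.

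Of the 15 core pluripotency genes, 9 did not pass. The share called was 40%, against 34.7% of all genes, and the share that rose was 33.3%, against 17.8%. Pou5f1, the Oct4 gene, was at 13.33, 13.32 and 13.35 in the ES arrays and 13.38, 13.37 and 13.37 in the EB arrays, and Nanog at 13.55, 13.43 and 13.43 in the ES arrays and 13.39, 13.30 and 13.38 in the EB arrays. The EB arrays lay just above the ES arrays for Pou5f1 and just below them for Nanog, but neither passed (0.043 ± 0.04 and -0.11 ± 0.05), and at such bright levels a change can be compressed on an array. Sox2, at 12.80, 12.61 and 12.71 in the ES arrays and 13.08, 12.93 and 13.07 in the EB arrays, rose by 0.32 ± 0.06. Of the core genes 5 rose, among them Dnmt3l (0.60 ± 0.05), Gdf3 (0.56 ± 0.05) and Utf1 (0.40 ± 0.07), and 1 fell, Dppa2 (-0.40 ± 0.06).

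Naive pluripotency genes, whose expression marks the ground state and which are often lost on exit from it, were mixed: 10 of 22 rose, 5 fell and 7 did not pass. Fgf4 (0.73 ± 0.04), Nr0b1 (0.72 ± 0.05), Tcl1 (0.62 ± 0.04), Nr5a2 (0.48 ± 0.05) and Klf2 (0.33 ± 0.06) rose. Klf4, a direct STAT3 target, was at 11.46, 11.62 and 11.58 in the ES arrays and 11.03, 11.04 and 11.01 in the EB arrays, lower in all EB arrays (-0.52 ± 0.05). Tbx3 (-0.55 ± 0.05) and Fbxo15 (-0.90 ± 0.07) fell too. Zfp42, the gene of the classical ES cell marker Rex1, stood at 11.78, 11.76 and 11.87 in the ES arrays and 11.86, 11.71 and 11.69 in the EB arrays, and with Esrrb (0.098), Tfcp2l1 (0.03) and Klf5 (0.088) it did not pass (-0.052 ± 0.06).

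Genes of the LIF and STAT3 pathway fell more often than they rose. Of 18 measured genes, 12 fell and 3 rose, with a median of -0.22, where 16.9% of all genes fell. Socs3, the STAT3-induced feedback inhibitor, was at 10.16, 10.20 and 10.30 in the ES arrays and 9.67, 9.82 and 9.75 in the EB arrays. The EB arrays were all lower (-0.47 ± 0.07), and a further Socs3 probe set fell by 0.26. Pim1, a kinase gene that STAT3 induces, fell by 0.83 ± 0.05 and Stat3 itself fell by 0.19 ± 0.04. The cytokine gene Lif fell by 0.84 ± 0.06, and Osmr, the gene of the oncostatin M receptor, had the largest fall of the list (-1.61 ± 0.07). Lifr, the gene of the LIF receptor, went the other way, with levels of 10.55, 10.53 and 10.50 in the ES arrays and 11.34, 11.34 and 11.34 in the EB arrays and a rise of 0.81 ± 0.05. Its partner Il6st rose by 0.20 ± 0.04. Fibroblast markers were lower in the same EB arrays, as given above, and Osmr and Lif are also expressed in fibroblasts; the part of those cells in this list was not tested.

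Of 19 primed epiblast genes, 13 rose and 3 fell, with a median of 0.45 (9 of 15 and 0.22 without the 4 named in earlier work). Otx2, a homeobox gene that helps set up the primed state, was at 7.68, 7.73 and 7.83 in the ES arrays and 10.59, 10.61 and 10.80 in the EB arrays, and rose by 2.92 ± 0.06 (7.57-fold). Enpp3, an ectonucleotidase gene, was at 9.36, 9.02 and 9.02 in the ES arrays and 11.76, 11.66 and 11.85 in the EB arrays, and rose by 2.62 ± 0.09. For both the groups lay more than 2 log2 units apart. Fgf5, the classical marker of the primed epiblast, was at 7.35, 7.995 and 7.85 in the ES arrays and 8.77, 8.94 and 8.86 in the EB arrays, a rise of 1.12 ± 0.13 with the ES arrays less tight. Lef1 (1.18 ± 0.05), Zic2 (1.12 ± 0.09), Car4 (1.19 ± 0.15), Grhl2 (0.58 ± 0.09) and Foxd3 (0.45 ± 0.07) rose as well. The de novo DNA methyltransferase genes rose only slightly, Dnmt3a by 0.23 ± 0.05 and Dnmt3b by 0.21 ± 0.05 (adjusted p = 0.0513 in limma with only the ES and EB arrays), beside the larger rise of their cofactor Dnmt3l. Igfbp3 (-1.09 ± 0.06) and Sfrp2 (-0.33 ± 0.06) fell.

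**Figure D3:**
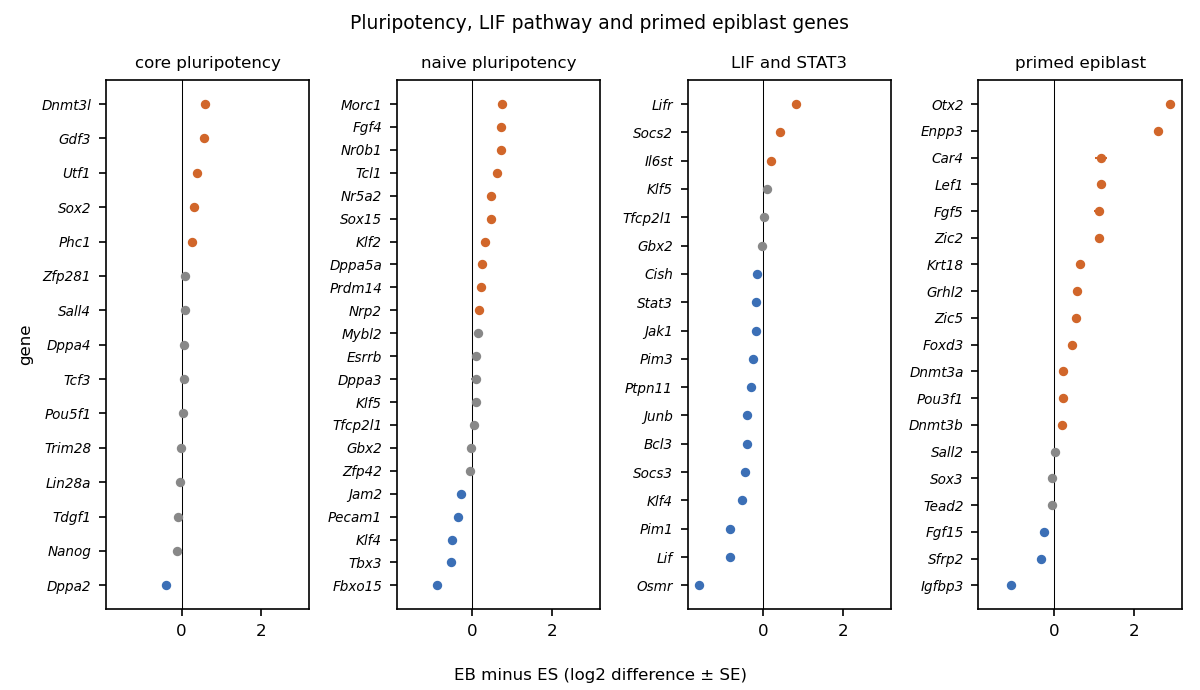
Points give the difference EB minus ES (log2, horizontal) of each member of 4 gene lists, with bars for the SE (n = 3 arrays per group) and colour for the call (orange higher, blue lower, grey did not pass). Of the core genes 9 of 15 are grey, naive genes lie on both sides, 12 of 18 LIF and STAT3 genes are blue and 13 of 19 primed epiblast genes are orange. The share called was 40% of the core genes, against 34.7% of all genes.

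Junction and keratin genes of simple epithelia rose in 28 of 42 cases and fell in 4, with a median of 0.35. The tight junction gene Cldn6 was at 9.70, 9.68 and 9.67 in the ES arrays and 12.01, 12.23 and 12.14 in the EB arrays, with a rise of 2.44 ± 0.08 (5.44-fold), and the claudin genes Cldn7 (1.08 ± 0.13) and Cldn4 (0.89 ± 0.06) and the occludin gene Ocln (1.04 ± 0.09) followed. Ap1m2, which sorts proteins to the basolateral membrane, rose by 1.51 ± 0.06, and the epithelial splicing factor gene Esrp1 by 1.17 ± 0.07. Keratin genes Krt19 (1.11 ± 0.07), Krt18 (0.65 ± 0.07) and Krt8 (0.52 ± 0.05) and the desmosome gene Dsp (0.83 ± 0.05) were higher. Cdh1, the E-cadherin gene that ES cells already express, did not pass (0.054 ± 0.04). Cgn, the gene of the tight junction protein cingulin, fell by 0.58 ± 0.07.

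Mesenchymal genes fell over the same step. Of 29 genes of mesenchymal transition, 22 fell and 2 rose, a median of -0.61. N-cadherin (Cdh2) fell by 1.41 ± 0.06, and the mesenchymal cadherin gene Cdh11 (-1.97 ± 0.14), the stromelysin gene Mmp3 (-2.19 ± 0.05), the hyaluronan receptor gene Cd44 (-1.65 ± 0.06) and the transcription factor genes Snai2 (-0.90 ± 0.06), Zeb2 (-0.81 ± 0.05) and Snai1 (-0.47 ± 0.06) fell as well. The fibronectin gene Fn1 (0.025) did not pass, and Cdh6 rose by 1.49 ± 0.09. In the same arrays the mean level of the 13 fibroblast markers, S100a4 and Twist2 of this list among them, went from between 9.38 and 9.41 to between 8.16 and 8.28; the part of fibroblasts in the result was not tested.

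Of the 46 fibroblast and matrix genes, 38 fell and 0 rose, with a median of -0.87; without the 8 that earlier work had named, 30 of 38 fell. Efemp1, the gene of the matrix protein fibulin-3, was at 10.91, 10.71 and 10.77 in the ES arrays and 7.42, 7.32 and 7.26 in the EB arrays. It had the largest fall among the genes that could be named (-3.47 ± 0.07, 11.1-fold). The surface marker gene Thy1 was at 10.88, 10.75 and 10.96 in the ES arrays and 9.11, 9.03 and 8.99 in the EB arrays, a change of -1.82 ± 0.06, and the collagen gene Col1a1 at 9.66, 9.96 and 9.84 in the ES arrays and 8.92, 9.06 and 8.85 in the EB arrays, a change of -0.87 ± 0.07. All EB arrays lay below all ES arrays for these genes. The lysyl oxidase gene Lox (-2.15 ± 0.10), the thrombospondin gene Thbs1 (-1.77 ± 0.07), Fbln2 (-2.06 ± 0.07) and the collagen receptor gene Ddr2 (-1.92 ± 0.06) fell as well. Lum (0.076), Col3a1 (-0.24) and Vcan (0.14) did not pass, but Col3a1 passed without ES replicate 1 (-0.30) or EB replicate 2 (-0.34) and Vcan without EB replicate 2 (0.22).

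Genes of stress fibres and targets of the mechanosensitive coactivator YAP were lower as well: 24 of 38 fell and 3 rose, a median of -0.38. Ankrd1, a YAP target, was at 10.16, 9.68 and 9.98 in the ES arrays and 7.22, 7.28 and 6.79 in the EB arrays, and fell by 2.85 ± 0.14. The other YAP targets Ccn2 (-0.90 ± 0.05), Ccn1 (-0.97 ± 0.06) and Amotl1 (-1.08 ± 0.06) fell, while Amotl2 (-0.012) did not pass. The caveolin gene Cav1 was at 10.62, 10.52 and 10.64 in the ES arrays and 7.96, 8.13 and 8.14 in the EB arrays, with a change of -2.52 ± 0.07, and Cav2 fell by 2.31 ± 0.07 and Cavin2, which shapes the same membrane pits, fell by 2.79 ± 0.09. Annexin genes Anxa1 (-2.33 ± 0.11) and Anxa3 (-2.04 ± 0.06) and smooth muscle actin Acta2 (-1.73 ± 0.11) fell. Cytoplasmic actin Actb (-0.032), Yap1 (-0.058) and Srf (-0.091) did not pass. These genes are also strongly expressed in fibroblasts, whose markers fell in 11 of 13 cases in the same arrays; their part in the result was not tested.

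Immediate early genes, which respond within minutes to serum and growth factors, fell in 18 of 30 cases and rose in 4. Fos was at 9.78, 9.65 and 9.69 in the ES arrays and 7.76, 8.09 and 7.88 in the EB arrays, and Egr1 at 10.71, 10.70 and 10.73 in the ES arrays and 8.63, 8.73 and 8.84 in the EB arrays. No EB array reached an ES array for either gene, and the changes were -1.80 ± 0.08 and -1.98 ± 0.06. Fosl1 (-1.41 ± 0.07), Jun (-1.21 ± 0.06), Fosb (-0.92 ± 0.10) and Plk2 (-0.92 ± 0.06) fell, whereas Arc (0.53 ± 0.06), Maff (0.41 ± 0.07) and Nr4a1 (0.35 ± 0.05) rose and Myc (-0.18) and Atf3 (0.18) did not pass. The list's median was -0.30. Fibroblast markers moved with this list too, and their part was not tested.

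**Figure D4:**
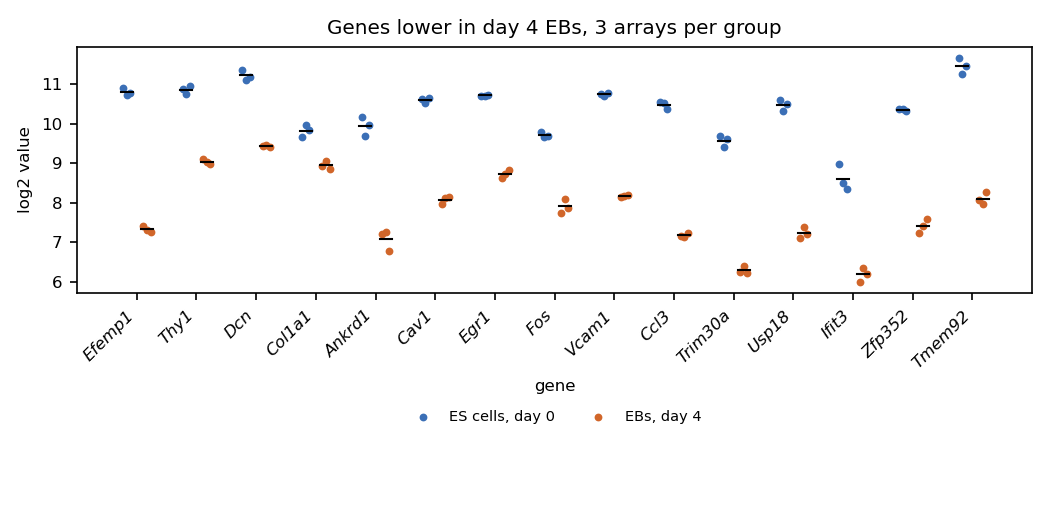
Log2 values (vertical) of 15 genes lower in bodies, from matrix and surface genes at the left to genes of the early embryo at the right, in 3 ES arrays (blue) and 3 EB arrays (orange), with black bars for the group means (n = 3). In each of them the EB arrays lie below the ES arrays with no overlap, with a mean difference of -3.47 for Efemp1 and -0.87 for Col1a1.

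Interferon-stimulated genes, the effectors of the antiviral response, were lower in bodies. Of 43 measured, 35 fell, 2 rose and 6 did not pass, and the median was -0.66. Trim30a, a regulator of innate signalling, was at 9.69, 9.42 and 9.60 in the ES arrays and 6.27, 6.42 and 6.23 in the EB arrays, and fell by 3.26 ± 0.08 (9.6-fold). Usp18, which removes the ubiquitin-like protein ISG15 and limits interferon signalling, was at 10.61, 10.33 and 10.50 in the ES arrays and 7.10, 7.39 and 7.21 in the EB arrays, with a change of -3.24 ± 0.11. The antiviral gene Ifit3 was at 8.98, 8.51 and 8.35 in the ES arrays and 6.004, 6.36 and 6.21 in the EB arrays. Its ES arrays were spread, replicate 1 being the highest, yet all lay above the EB arrays, with a change of -2.42 ± 0.14. Oasl2 (-2.65 ± 0.10), Mx2 (-2.54 ± 0.16), Rtp4 (-2.49 ± 0.08), Oas2 (-2.13 ± 0.05), Ifi27 (-2.22 ± 0.07) and Ifit1 (-2.06 ± 0.12) also fell. Ifit, Oas and Mx genes have close paralogues that a probe set may not fully separate. Transcription factor genes of the response fell by smaller amounts, Irf7 (-0.94 ± 0.07) and Irf9 (-0.53 ± 0.06) among them, and Stat2 (0.023) and Irf1 (0.14) did not pass. Ifitm1, a member of the family expressed in early embryonic cells, rose by 0.90 ± 0.06.

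The promoters of these genes were looked at for the interferon-stimulated response element, searched as GAAA, any 2 bases and GAAA on both strands of the RefSeq windows (GRCm38.p6) of 300 bases that span a gene's start. Of the 31 list members with a window, 16 held it (51.6%), against 607 of 15614 genes on the array with a window (3.89%). The list was drawn up from textbook knowledge of interferon-stimulated genes, so its share above that of all genes does not bear on this comparison. Among the 23 members with a window that fell, 13 held it. The 3 most lowered holders are printed because they are the list's largest falls that hold the searched letters, 5′ to 3′ on the gene's strand, with matches in capitals.
Trim30a, chr7:104465144-104465443, minus strand: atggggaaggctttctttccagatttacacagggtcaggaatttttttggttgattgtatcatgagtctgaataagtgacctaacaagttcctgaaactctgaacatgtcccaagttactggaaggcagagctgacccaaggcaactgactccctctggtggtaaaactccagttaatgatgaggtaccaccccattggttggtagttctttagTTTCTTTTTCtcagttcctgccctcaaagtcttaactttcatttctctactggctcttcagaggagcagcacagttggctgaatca
Ifit3, chr19:34583279-34583578, plus strand: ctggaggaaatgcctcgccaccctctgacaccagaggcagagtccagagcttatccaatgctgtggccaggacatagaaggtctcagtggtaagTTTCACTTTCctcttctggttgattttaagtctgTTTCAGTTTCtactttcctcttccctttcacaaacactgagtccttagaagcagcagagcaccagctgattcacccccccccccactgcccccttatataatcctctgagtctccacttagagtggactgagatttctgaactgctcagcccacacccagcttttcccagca
Ifit1, chr19:34640639-34640938, plus strand: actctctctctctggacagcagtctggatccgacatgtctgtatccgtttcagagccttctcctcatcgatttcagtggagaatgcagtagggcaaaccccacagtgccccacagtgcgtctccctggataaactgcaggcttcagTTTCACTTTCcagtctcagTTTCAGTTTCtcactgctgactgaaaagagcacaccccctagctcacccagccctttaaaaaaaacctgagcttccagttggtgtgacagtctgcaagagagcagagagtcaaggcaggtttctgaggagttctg
Trim30a had 1 match and Ifit3 and Ifit1 had 2 each. The windows of Oasl2 (-2.65) and Herc6 (-2.04), list members with changes of like size, held none. A match describes the letters and does not show that a factor was bound in these cells.

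Genes of inflammation were lower too. In the NF-kB target list 16 of 21 fell and 2 rose, with the adhesion molecule gene Vcam1 at 10.75, 10.70 and 10.78 in the ES arrays and 8.16, 8.17 and 8.19 in the EB arrays. The replicates were tight and the change was -2.57 ± 0.06. Ptgs2, the cyclooxygenase gene (-1.98 ± 0.05), the toll-like receptor gene Tlr4 (-1.61 ± 0.11), Nfkbie (-1.04 ± 0.04), Nfkb2 (-0.86 ± 0.05) and Icam1 (-0.57 ± 0.06) fell. Among 44 chemokines and cytokines, 18 fell, 1 rose and 25 did not pass. Ccl3, which draws in macrophages, was at 10.54, 10.53 and 10.38 in the ES arrays and 7.17, 7.13 and 7.23 in the EB arrays, a change of -3.30 ± 0.07. Csf1 (-2.14 ± 0.08), Ccl2 (-2.14 ± 0.06), Cxcl10 (-1.73 ± 0.13), Ccl5 (-1.71 ± 0.11) and Cx3cl1 (-1.22 ± 0.04) fell, and so did Ppbp, a platelet chemokine gene on none of the lists (-3.16 ± 0.11). Of 13 antigen presentation genes 7 fell and 1 rose. B2m, the light chain of class I molecules, fell by 0.95 ± 0.07, as did Tapbp (-0.83 ± 0.05) and Tap2 (-0.70 ± 0.07), while the immunoproteasome genes Psmb8 (-0.098) and Psmb9 (-0.098) did not pass. The fibroblast markers fell with the interferon, chemokine and NF-kB lists, while the mean level of 6 macrophage markers was 7.11 to 7.22 in ES arrays and 7.07 to 7.24 in EB arrays. Of 19 macrophage genes 3 rose and 3 fell (31.6% called, against 34.7% of all genes). The falls were those of Cd53 (-1.33 ± 0.12), Cybb (-1.05 ± 0.10) and Cd14 (-0.65 ± 0.09). The part of these cell types in the lists was not tested.

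Genes of the brief 2-cell-like state, which a small share of cells in an ES culture enters at any time and which resembles the embryo at first genome activation, had the lowest median of any list, -2.71. Of 17 measured, 16 fell and 0 rose; the list holds 4 genes whose fall was known when it was drawn up, and without them 12 of 13 fell, with a median of -1.995. Zfp352, a marker of that state, was at 10.36, 10.38 and 10.31 in the ES arrays and 7.25, 7.42 and 7.59 in the EB arrays, and fell by 2.93 ± 0.08 (7.63-fold). Tmem92 was at 11.65, 11.25 and 11.45 in the ES arrays and 8.07, 7.96 and 8.27 in the EB arrays, with a change of -3.35 ± 0.12. The arginase gene Arg2 (-3.01 ± 0.08), Tcstv3 (-1.99 ± 0.09), the deubiquitinase genes Usp17lb (-3.02 ± 0.12) and Usp17lc (-2.71 ± 0.08) and Tdpoz3 (-3.39 ± 0.13) fell as well. Obox6 fell by 3.14 ± 0.16 in the probe set used and differed by -0.50 in another, and Tdpoz2 (-1.85 ± 0.08) differed by -0.48 in another. Several of these genes have near-identical copies, so that their values can hold signal of a whole family. Tdpoz1 (0.061) did not pass. Stra8, a gene of entry into meiosis (-2.47 ± 0.14) and the germ line genes Mael (-1.26 ± 0.11), Slc25a31 (-1.53 ± 0.13) and Dazl (-0.87 ± 0.06) fell, within a germ line list of 6 higher and 10 lower of 27.

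Genes that respond to low oxygen rose in 27 of 35 cases and fell in 2, with a median of 0.38. Egln3, the gene of an oxygen-sensing prolyl hydroxylase, was at 10.66, 10.64 and 10.54 in the ES arrays and 12.54, 12.59 and 12.59 in the EB arrays, a rise of 1.96 ± 0.05. Stc2, a secreted glycoprotein gene induced by hypoxia, was at 8.60, 8.76 and 8.59 in the ES arrays and 10.89, 10.74 and 10.71 in the EB arrays, with a rise of 2.13 ± 0.06. All EB arrays were above all ES arrays in both. Ndrg1 (1.90 ± 0.08), the mitophagy gene Bnip3 (1.43 ± 0.07), Ddit4 (1.12 ± 0.06), Adm (1.10 ± 0.10) and the angiogenic factor gene Vegfa (0.53 ± 0.05) rose. Epas1, which encodes HIF-2 alpha, rose by 0.87 ± 0.06, and Hif1a (-0.024) and Vhl (0.073) did not pass. Angptl4 (-0.43 ± 0.05) and Pfkfb4 (-0.30 ± 0.04) fell.

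Glycolysis genes followed with smaller steps: 17 of 23 rose and 1 fell, a median of 0.28. Ldhb (1.22 ± 0.05), Aldoc (0.88 ± 0.07), the glycogen branching enzyme gene Gbe1 (0.92 ± 0.08) and Pfkp (0.61 ± 0.04) led, and Ldha (0.021) did not pass. Of 83 subunits of oxidative phosphorylation, 10 rose and 13 fell (27.7% called, against 34.7% of all genes). The count that fell was 7 without ES replicate 3 and 4 after median centring, and the count that rose was 5 without EB replicate 3. Cytosolic ribosomal protein genes moved in few cases, with 1 higher and 3 lower of 62 (8 and 9 with an intensity trend and a robust prior).

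The core of the hypoxia response element, searched as ACGTG on both strands of the same windows, was found in 18 of 27 hypoxia genes with a window (66.7%) and in 3809 of 15614 genes at large (24.4%). Since textbook knowledge of hypoxia genes made the list, its share above that of all genes does not bear on this comparison. Of the 20 members with a window that rose, 15 held it. Stc2 (2.13) and Adm (1.10) rose too, but their windows did not hold it. The list's 2 largest rises among the holders are printed.
Egln3, chr12:54203825-54204124, minus strand: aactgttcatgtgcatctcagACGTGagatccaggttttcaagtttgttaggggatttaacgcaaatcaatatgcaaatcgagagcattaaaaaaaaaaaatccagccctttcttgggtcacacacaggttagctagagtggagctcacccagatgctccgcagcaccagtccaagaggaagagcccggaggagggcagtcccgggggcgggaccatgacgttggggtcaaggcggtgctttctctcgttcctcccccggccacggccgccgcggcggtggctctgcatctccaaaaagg
Bnip3, chr7:138909457-138909756, minus strand: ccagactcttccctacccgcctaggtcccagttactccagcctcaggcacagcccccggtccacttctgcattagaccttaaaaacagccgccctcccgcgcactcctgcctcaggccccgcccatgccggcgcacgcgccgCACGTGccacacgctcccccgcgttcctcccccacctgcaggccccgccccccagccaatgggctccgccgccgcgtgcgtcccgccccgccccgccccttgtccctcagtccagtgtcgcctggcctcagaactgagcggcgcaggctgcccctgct
In Bnip3 the match reads the same on both strands and counts 2 times over 1 stretch of 6 bases, a stretch that is also an E-box, the site of many other factors.

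Amino acid supply genes and the integrated stress response rose in most cases. Of 25 amino acid transporter genes 19 rose and 2 fell, with a median of 0.44. Slc7a11, the cystine transporter gene, was at 6.56, 6.64 and 6.72 in the ES arrays and 8.71, 8.13 and 8.54 in the EB arrays, with no overlap and a rise of 1.82 ± 0.14 (3.52-fold). The arginine transporter gene Slc7a3 (1.33 ± 0.06), the glycine transporter gene Slc6a9 (1.24 ± 0.07) and Slc7a8 (1.21 ± 0.09) rose. In the stress list 16 of 28 genes rose and 2 fell. The risers included known targets of the transcription factor ATF4: Cth of cysteine synthesis (1.59 ± 0.06), Chac1, which breaks down glutathione (1.14 ± 0.06), Trib3 (0.82 ± 0.06), Sesn2 (0.58 ± 0.07) and Atf4 itself (0.40 ± 0.06). Several chaperone genes of the endoplasmic reticulum did not pass, Hspa5 (0.038), Hsp90b1 (0.12) and Pdia4 (0.015) among them, nor did Xbp1 (-0.0016) or Ddit3 (0.015); Herpud1 (0.80 ± 0.05) and Dnajc3 (0.35 ± 0.04) rose.

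ATF4 acts through a composite site, searched here as TGATGNAA on both strands. It lay in the windows of 7 of 26 stress genes (26.9%), of 3 of 21 amino acid transporter genes (14.3%) and of 565 of 15614 genes (3.62%), and 6 of the 15 stress genes with a window that rose held it. Both lists were drawn up from textbook knowledge, and known ATF4 targets are among their genes. Their shares above that of all genes therefore do not bear on this comparison. Slc7a11, with 2 matches, and Chac1, with 1, are the largest rises among the holders and are printed for that.
Slc7a11, chr3:50443564-50443863, minus strand: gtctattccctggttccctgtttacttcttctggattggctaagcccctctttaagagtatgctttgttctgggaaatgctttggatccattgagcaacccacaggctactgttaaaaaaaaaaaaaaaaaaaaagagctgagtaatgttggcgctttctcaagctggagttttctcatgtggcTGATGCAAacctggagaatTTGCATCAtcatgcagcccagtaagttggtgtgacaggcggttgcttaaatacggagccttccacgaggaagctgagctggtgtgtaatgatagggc
Chac1, chr2:119350992-119351291, plus strand: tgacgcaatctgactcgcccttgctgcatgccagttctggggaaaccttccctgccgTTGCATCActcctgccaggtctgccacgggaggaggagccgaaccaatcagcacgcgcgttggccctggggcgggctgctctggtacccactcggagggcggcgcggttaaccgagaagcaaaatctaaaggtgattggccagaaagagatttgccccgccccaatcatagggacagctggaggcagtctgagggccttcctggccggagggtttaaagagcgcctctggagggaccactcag
Both windows carry the reverse complement of the searched letters, TTGCATCA, and Slc7a11 carries the forward form too.

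Metal and glutathione genes rose: Mt1 was at 11.07, 11.09 and 11.10 in the ES arrays and 12.32, 12.56 and 12.59 in the EB arrays, a rise of 1.40 ± 0.07, beside Mt2 (1.14 ± 0.06), the glutathione transferase gene Gstm1 (1.45 ± 0.07), Gpx2 (1.02 ± 0.08) and Hmox1 (0.71 ± 0.05). Gpx1 fell by 0.92 ± 0.06 and the thioredoxin reductase gene Txnrd1 fell by 0.46 ± 0.06, and the list counted 14 higher and 4 lower of 24. Cholesterol synthesis genes rose in 15 of 20 cases, Tm7sf2 (0.89 ± 0.05), Lss (0.60 ± 0.06) and Cyp51 (0.44 ± 0.09) leading, together with their regulator Srebf2 (0.44 ± 0.04). Fatty acid synthesis genes split 7 to 4 of 20, with Me1 (0.93 ± 0.05) higher and Dgat2 (-0.81 ± 0.06) and Acaca (-0.33 ± 0.05) lower. Heat shock genes had 0 higher and 4 lower of 12 (33.3% called, against 34.7% of all genes), led by Hspb8 (-0.68 ± 0.07) and Hspa1a (-0.62 ± 0.09).

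Signalling genes changed in both directions within each pathway. The share called was 41.5% in the Wnt list and 53.8% in the BMP list, against 34.7% of all genes. It was 63.2% in the Nodal list and 70.8% in the FGF list. In the Wnt list 11 of 41 rose and 6 fell, and the risers included the secreted inhibitors Notum, at 7.88, 8.10 and 8.09 in the ES arrays and 9.49, 9.34 and 9.50 in the EB arrays, and Dkk1, at 9.71, 9.84 and 9.77 in the ES arrays and 10.91, 11.26 and 11.16 in the EB arrays. Their groups did not overlap, with rises of 1.42 ± 0.08 and 1.33 ± 0.10, and the feedback target Axin2 rose by 0.35 ± 0.07 and the receptor gene Fzd7 by 1.07 ± 0.04. The ligand genes Wnt3 (0.021) and Wnt3a (0.00075) did not pass, and Wnt5a (-0.72 ± 0.11) and Wnt8a (-0.44 ± 0.08) fell. In the Nodal list (9 higher and 3 lower of 19) the transcription factor partner Foxh1 (0.83 ± 0.05), Skil (0.75 ± 0.06) and the antagonist Lefty1 (0.29 ± 0.08) rose, Nodal (0.15) did not pass, and Smad3 (-0.98 ± 0.06) and the activin gene Inhba (-1.28 ± 0.09) fell. Of 26 BMP genes 6 rose and 8 fell. Bmp2, a product of visceral endoderm, rose by 1.11 ± 0.10, Bmp4 by 0.33 ± 0.05 and Id4 by 0.59 ± 0.05, while Id1 (-0.037) and Id3 (-0.07) did not pass and Bmp7 (-0.56 ± 0.06) and Grem1 (-0.77 ± 0.08) fell. FGF genes had 12 higher and 5 lower of 24, the feedback genes Spred1 (0.28 ± 0.06) and Etv5 (0.34 ± 0.04) among the former and Fgfr3 (-0.80 ± 0.07) among the latter. With EB replicate 3 left out, 3 of the FGF genes fell.

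Genes of other germ layers also moved both ways. The share called was 33.3% in the cardiac list, 38.1% in the trophoblast list and 40% in the blood and endothelium list. It was 46.2% in the primitive streak list and 46.7% in the neural list, against 34.7% of all genes. Of the primitive streak list, Eomes, which is also a factor of visceral endoderm, was at 9.54, 9.26 and 9.38 in the ES arrays and 10.24, 10.29 and 10.36 in the EB arrays, and Lhx1 at 7.10, 7.14 and 6.93 in the ES arrays and 7.83, 8.08 and 7.95 in the EB arrays. Both rose without overlap, by 0.90 ± 0.07 and 0.90 ± 0.09, but Mesp1 (0.062), Fgf8 (0.032), Gsc (0.015) and Msgn1 (-0.10) did not pass, and 5 rose and 7 fell of 26. In the cardiac list 5 of 24 rose and 3 fell (5 without ES replicate 1): Tbx20 (1.22 ± 0.06) rose, Nkx2-5 (-0.00092) and Myh6 (-0.054) did not pass and Tnnt2 (-0.40 ± 0.04) fell. Endothelial genes Flt1 (1.23 ± 0.07), Cdh5 (0.90 ± 0.05) and Esam (0.68 ± 0.09) rose, with Kdr (0.13) and Tek (-0.10) not passing and Cd34 lower (-2.12 ± 0.06). Of neural genes, Sox21 (1.04 ± 0.06), Sox11 (1.01 ± 0.12), Crmp1 (1.19 ± 0.09) and Sox1 (0.44 ± 0.07) rose, Stmn2 (-0.97 ± 0.08) and Map2 (-0.71 ± 0.09) fell, and Tubb3 (-0.018) did not pass. The trophoblast list had 7 higher and 1 lower of 21. Its risers Krt8, Krt18 and Krt19 belong to simple epithelia at large and Eomes to endoderm as well, while Elf5 (0.084), Cdx2 (0.016) and Tfap2c (-0.08) did not pass.

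Among regulators of the G1 phase 3 of 23 genes rose and 7 fell. The share called was 43.5% in this list, 41.4% in the mitosis list and 46.7% in the DNA replication list, against 34.7% of all genes. The share that fell was 30.4%, 31% and 36.7% in the same order, against 16.9% of all genes. Ccnd1, the cyclin D1 gene, was at 12.66, 12.79 and 12.78 in the ES arrays and 11.35, 11.43 and 11.38 in the EB arrays, a change of -1.36 ± 0.05 with the groups apart. The inhibitor gene Cdkn2c fell by 1.07 ± 0.12, Cdkn1b, the p27 gene, rose by 0.73 ± 0.04 (1.24 in a further probe set), and Cdkn1c, the p57 gene, rose by 0.58 ± 0.09. Of the mitosis genes 3 rose and 9 fell of 29, and of the DNA replication genes 3 and 11 of 30, with Rfc3 (-0.72 ± 0.05) and Tk1 (-0.40 ± 0.04) lower. Single arrays moved these counts: 4 mitosis genes fell without ES replicate 3, 5 without EB replicate 2 and 3 after median centring, and 7 replication genes fell without EB replicate 2, 6 after median centring, while 1 rose without ES replicate 3 or EB replicate 1. Chromatin genes changed in part: among Polycomb genes Cbx7 (0.65 ± 0.06), Ezh1 (0.56 ± 0.06) and Bmi1 (0.36 ± 0.07) rose, Yaf2 (-0.43 ± 0.05) fell and Ezh2 (-0.038) and Eed (-0.048) did not pass. Hox genes of groups 1 to 5 fell in 9 of 14 cases with 0 higher, led by Hoxa5, at 9.43, 9.23 and 9.34 in the ES arrays and 8.12, 7.86 and 8.09 in the EB arrays. The groups lay apart (-1.31 ± 0.07), and Hoxb2 fell by 1.28 ± 0.11 and Hoxa2 fell by 1.12 ± 0.08; fibroblasts, whose markers fell in the same arrays, also express Hox genes, and their part was not tested. Of 23 genes of groups 6 to 13, 2 rose and 7 fell (39.1% called, against 34.7% of all genes). The count that fell was 4 without EB replicate 1, and the count that rose was 0 without ES replicate 1 or EB replicate 2 and 1 without ES replicate 3, EB replicate 1 or EB replicate 3. The largest of these falls was in Hoxa6 (-0.63 ± 0.05). Retinoid pathway genes, read here because other bodies of the study received retinoic acid, had 5 higher and 10 lower of 22: Rdh10, which makes retinaldehyde, rose by 0.48 ± 0.06, and the retinoic acid-binding protein gene Crabp1 fell by 1.47 ± 0.05.

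Imprinted genes, read from 1 parental allele, rose in 15 and fell in 8 of 32 cases. Peg3 (1.06 ± 0.05), Igf2 (0.92 ± 0.09) and Grb10 (0.56 ± 0.05) rose and Phlda2 (-0.83 ± 0.06) and Igf2r (-0.47 ± 0.05) fell, with Dcn (-1.78 ± 0.06), which is also a fibroblast marker. In the imprinted region from Dlk1 to Dio3, a list drawn up after its values were seen, 15 of 48 measured genes rose and 2 fell. The share called was 35.4%, against 34.7% of all genes, and the share that rose was 31.2%, against 17.8%. The count that rose was 12 without EB replicate 3 and 21 without EB replicate 1. The risers are read from the maternal allele: Meg3, at 9.34, 9.86 and 9.67 in the ES arrays and 10.17, 10.61 and 10.68 in the EB arrays, rose by 0.87 ± 0.14, Rian by 0.59 ± 0.09, and the microRNA genes Mir382, Mir377 and Mir380 by 1.13 ± 0.14, 0.97 ± 0.15 and 0.99 ± 0.20. The paternally read genes Dlk1 (-0.52 ± 0.07) and Dio3 (-0.39 ± 0.07) were those that fell, and Rtl1 (0.097), also paternal, did not pass. Within the EB group the microRNA values spread, Mir382 lying at 7.38, 7.47 and 8.04, so that replicate 3 was the highest.

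Of 2 related microRNA clusters, which were also chosen after their values were seen, the one around Mir17 held 3 genes that fell of 6 and the X-linked one 2 that rose of 5, Mir363 and Mir106a. Mature microRNAs silence targets through bases 2 to 8, the seed, given below in capitals from RefSeq (GRCm38.p6). They are shown because they say which members of the clusters share a seed.
miR-17-5p, chr14:115043684-115043706, plus strand: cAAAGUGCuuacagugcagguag
miR-20a-5p, chr14:115044183-115044205, plus strand: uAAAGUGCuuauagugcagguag
miR-20b-5p, chrX:52742159-52742181, minus strand: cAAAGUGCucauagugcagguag
miR-19b-3p, chr14:115044358-115044380, plus strand: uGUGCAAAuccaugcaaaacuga
miR-363-3p, chrX:52741697-52741718, minus strand: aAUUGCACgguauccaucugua
miR-92a-3p, chrX:52741854-52741874, minus strand: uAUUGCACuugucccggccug
miR-17, miR-20a and the X-linked miR-20b and miR-106a (the last not printed) share the seed AAAGUGC, and miR-363 and miR-92a share AUUGCAC. Mir20a was at 8.42, 8.23 and 8.20 in the ES arrays and 6.54, 6.38 and 6.89 in the EB arrays, Mir19b-1 at 9.30, 9.39 and 9.25 in the ES arrays and 7.37, 7.27 and 7.78 in the EB arrays and Mir17 at 7.997, 8.39 and 8.20 in the ES arrays and 7.18, 7.30 and 7.40 in the EB arrays. All EB arrays were lower, with changes of -1.69 ± 0.11, -1.84 ± 0.13 and -0.90 ± 0.11, but the host transcript Mir17hg (0.16) and the cluster members Mir18 (-0.12) and Mir19a (-0.18) did not pass. On the X chromosome Mir363 was at 4.53, 4.75 and 4.55 in the ES arrays and 7.16, 6.63 and 7.43 in the EB arrays, a rise of 2.46 ± 0.19, and Mir106a was at 5.13, 5.24 and 5.25 in the ES arrays and 5.39, 5.50 and 5.40 in the EB arrays, a rise of 0.23 ± 0.07 whose call was lost without ES replicate 1, EB replicate 2 or EB replicate 3 (0.19 to 0.24). Their neighbours Mir20b (0.43), Mir19b-2 (0.20) and Mir92-2 (0.077) did not pass, but Mir20b passed without ES replicate 2 (0.52) or EB replicate 2 (0.56). No EB array of Mir363 came near an ES array, though the EB values were spread. The probes read RNA that holds the hairpin, in total RNA labelled for long transcripts, and not the mature forms printed above. The Mir302 genes, of the family typical of the primed epiblast, did not pass (Mir302a to Mir302d, -0.24 to -0.093). Mir302c passed without ES replicate 3 (-0.31) and after quantile normalization (-0.30), and Mir367 of the same cluster fell by 0.29 ± 0.08. The mean level of these 5 genes was 4.4 to 4.5 in the ES arrays and 4.2 to 4.4 in the EB arrays. Array medians were 7.76 or more, and at such dim levels a change can be missed.

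Some of the largest changes fell outside the gene groups above. Pla2g7, the gene of a secreted enzyme that inactivates platelet-activating factor, was at 9.37, 9.17 and 9.29 in the ES arrays and 12.16, 12.08 and 12.09 in the EB arrays, a rise of 2.84 ± 0.05 (7.14-fold). P2rx3, an ATP-gated ion channel gene, was at 7.63, 7.52 and 7.57 in the ES arrays and 10.20, 9.72 and 9.96 in the EB arrays, a rise of 2.39 ± 0.11. Their groups lay apart. Clic6 of the intracellular chloride channel family (2.75 ± 0.11), the matrix protease gene Adamts9 (1.97 ± 0.06), the prostaglandin transporter gene Slco2a1 (1.93 ± 0.07), the glycosyltransferase gene B4galnt2 (1.98 ± 0.13) and Tfec, a transcription factor gene of the MITF family (1.96 ± 0.10), rose too. On the other side lay Ppargc1a, a coactivator gene of mitochondrial biogenesis, at 8.93, 8.76 and 8.99 in the ES arrays and 6.92, 7.18 and 6.98 in the EB arrays, with a change of -1.87 ± 0.13. The lipid droplet gene Plin2 (-0.96 ± 0.05) and the lipoprotein lipase gene Lpl (-0.92 ± 0.08) fell, while Fabp3, a fatty acid-binding protein gene, rose (0.96 ± 0.10). Pramel19 (-2.58 ± 0.16) and Pramel20 (-2.63 ± 0.17), of a family expressed in germ cells and the early embryo, fell as the 2-cell-stage genes did, and their copies resemble each other. Among p53 targets Mdm2 fell by 0.39 ± 0.04 and the death receptor gene Fas fell by 0.96 ± 0.07, with 4 higher and 5 lower of 18.

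**Figure D5:**
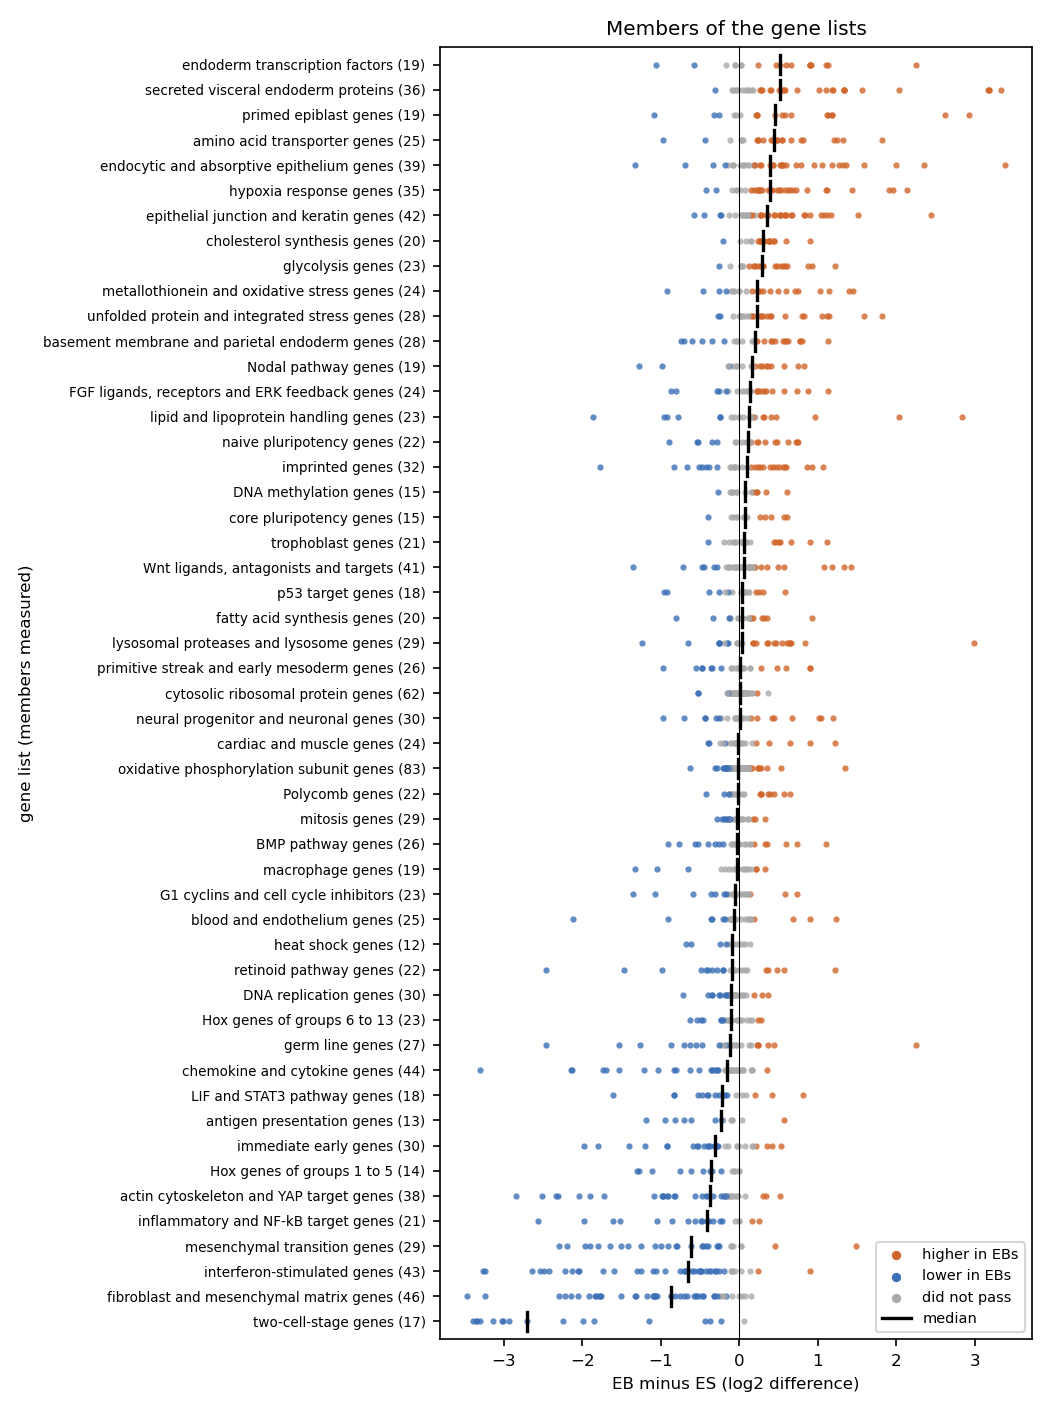
Each point is the difference EB minus ES (log2, horizontal) of 1 gene of a list, lists of 12 or more measured members being ordered by their median (black bar), with the number measured in brackets. Orange points rose, blue points fell and grey points did not pass. The 2-cell-stage, fibroblast and interferon lists lie lowest, and the endoderm, primed epiblast and amino acid transporter lists highest. The order includes members whose change was known when the lists were drawn up. Without them the median was 0.13 for endoderm transcription factors, 0.40 for secreted visceral endoderm proteins and 0.22 for primed epiblast genes.

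For the genes with the largest changes, the bodies that had received DMSO for 12 h give a further set of 3 arrays, set beside the others without a test. These bodies are a different condition, and their labels do not settle whether the 12 h followed day 4. Lrp2 stood at 11.96 ± 0.10, Ttr at 11.09 ± 0.16 and Otx2 at 10.92 ± 0.05 (mean ± SD, n = 3). Efemp1 stood at 7.36 ± 0.12, Trim30a at 6.44 ± 0.14 and Zfp352 at 7.23 ± 0.11. The mean level of the visceral endoderm markers was 9.89 to 10.13 in those arrays and that of the fibroblast markers 8.13 to 8.17.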

How the data were processed

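Total RNA was extracted with an RNeasy kit and made into biotinylated single-stranded cDNA with the Ambion WT Expression kit for Affymetrix arrays, per the labels' protocols. The authors deposited log2 values of 35556 probe sets per array. The log2 scale was inferred from the values (2.30 to 14.7); no source used here names the background correction or normalization. Such values hide changes of total RNA per cell, and the number of arrays limits the precision.

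Gene names came from the platform annotation. Of the probe sets, 21789 had exactly 1 symbol, 1621 had several and 12146 were not listed, and 21698 gene identifiers were found in a RefSeq table of assembly GRCm38.p6. Where a gene had more than 1 such probe set, the brightest on average over 12 arrays was kept (19938 genes), with no filter on low values. A mean per group was fitted over all 12 arrays with limma 3.58.1 in R 4.3.3 (eBayes defaults, two-sided, residual degrees of freedom 8 and prior 3.93, Benjamini-Hochberg over all genes, threshold 0.05); the code was tested on simulated data. Since the labels call the samples of a group biological replicates without saying how they were grown, p-values speak only of the spread among these samples.

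The members and gene lists were chosen with earlier results of these data known, so list counts and medians are descriptions beside those of all genes, with no set test. The text names the top 25 called genes in each direction whose groups do not overlap (predicted genes, microRNAs and olfactory or vomeronasal receptors aside), list members and check genes such as Pou5f1, though not all of them. Alternatives changed the scaling, the filter, the probe sets, the variance model, the arrays fitted and the thresholds. Promoter windows (none of chromosome 18) and microRNAs are from RefSeq tables of GRCm38.p6.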

Additional observations from a re-analysis of the deposited data

How the results depend on the processing

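The count of genes called (6925) was 7343 after quantile normalization, 6475 after median centring, 5669 with genes below the median level left out, 6960 above the 25th percentile, 8597 over all probe sets, 7396 with an intensity trend and robust prior, 9288 with array weights, 5277 with only the ES and EB arrays and 5063 at an adjusted p of 0.01. Requiring a change of at least 1.5-fold left 1433 (593 higher and 840 lower). Leaving out 1 array gave 6013 to 7102. The share of calls that were higher went from 51.4% to 58% with median centring. Same-numbered ES and EB arrays deviated together in 2 of 3 cases (r = 0.303, 0.506 and -0.065). Pairs of unlike number gave r of -0.514 (ES 1 with EB 2) to 0.312 (ES 1 with EB 3). Whether same-numbered arrays were handled together was not tested. With the replicate block 6848 genes were called, and 6068 with the block and only the ES and EB arrays. No called difference of a named gene changed sign under any alternative, while 27 of the 66 named genes that did not pass took the other sign in at least 1, 25 of these lying within 0.1 of 0. The calls of Afp and Dnmt3b were lost with only the ES and EB arrays (Afp also over all probe sets and without ES 2 and EB 2 together), and that of Mir106a after quantile normalization, over all probe sets, with the intensity trend, with array weights and without EB replicate 2 among others (0.17 to 0.24). Conversely 21 of the genes that did not pass were called under at least 1 alternative, among them Nanog with the intensity trend and robust prior (adjusted p = 0.0177 in limma) and with genes below the median level left out (0.0455), and Col3a1 (0.0278) and Mir20b (0.0402) with the replicate block. Leaving out single arrays also gave calls to Atf3, Cltc and Mir17hg (without EB replicate 1; 0.23, 0.15 and 0.28), Irf1 (without EB replicate 2; 0.18), Hsp90b1 (without ES replicate 1; 0.15) and Tek (without ES replicate 3; -0.18). Small list counts moved by 1 or 2 genes: 1 NF-kB gene rose without ES replicate 2, ES replicate 3, EB replicate 2 or EB replicate 3, 1 stress gene fell without ES replicate 1, ES replicate 3 or EB replicate 2, 2 fatty acid synthesis genes fell without ES replicate 2, EB replicate 2 or EB replicate 3, 2 trophoblast genes fell without ES replicate 1 or EB replicate 2, and 2 or 3 ribosomal protein genes rose without ES replicate 1, ES replicate 3 or EB replicate 2. With only the ES and EB arrays, 4 mitosis, 6 replication and 4 fatty acid synthesis genes passed in the more frequent direction. List counts without members named in earlier work were added after seeing the data.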
